A study of Arabidopsis thaliana with 3 samples.

Results

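The aquaporins of Arabidopsis thaliana, the channel proteins that let water and small neutral solutes cross membranes, were described in 3 libraries of polyadenylated RNA from whole wild-type seedlings. The libraries belong to a series on cohesin subunits and the monoubiquitination of histone H2A. The members were chosen by gene identifier, as the 35 genes of the family's standard list, and all 35 had a row in the table of 37336 genes. They fell into 5 PIP1 and 8 PIP2 genes for the plasma membrane, 10 TIP genes for the vacuolar membrane (tonoplast), 9 NIP genes and 3 SIP genes. All 3 samples formed 1 group of untreated Col-0 seedlings aged 7 days, grown at 21 °C in days of 16 h of light and 8 h of dark on agar (0.8%) medium with sucrose (1.5%). No mutant or treated group was analysed here. Whether the 3 replicates are separate batches of plants is not in the labels, so the spread between libraries may be technical.

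Aquaporins work as tetramers in which each subunit holds its own pore. PIP2 proteins pass water readily, while PIP1 proteins reach the plasma membrane mainly in tetramers with PIP2 partners. TIPs make the vacuolar membrane permeable to water and, in several members, to ammonia or urea. NIPs carry little water in the cell and are known for metalloids such as boric acid and arsenite, and SIPs are found in the endoplasmic reticulum. The narrowest parts of the pore include a pair of short loops that usually carry the residues asparagine, proline and alanine.

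The coding sequence (45 bases) around the first of these pore loops is shown for 8 members because the results turn on how alike related genes are and on which of them differed between libraries. It was read from the RefSeq genome of TAIR10.1 on the coding strand, and capitals mark the 3 codons for asparagine, proline and the third residue. In the PIP genes the span given crosses an intron, which is left out of the sequence, and in the others it lies within 1 coding exon. Names mostly follow the RefSeq symbol or synonym, and where the family list name differs, both stand side by side at least once.
PIP2A (PIP2;1, chr3:19804642-19805154, minus strand): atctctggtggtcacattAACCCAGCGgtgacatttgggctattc
PIP2B (PIP2;2, chr2:15614332-15614497, minus strand): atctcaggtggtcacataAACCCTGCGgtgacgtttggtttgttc
RD28 (PIP2;3, chr2:15618073-15618238, plus strand): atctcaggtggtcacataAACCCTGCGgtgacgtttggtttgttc
PIP2F (PIP2;4, chr5:24376396-24376639, minus strand): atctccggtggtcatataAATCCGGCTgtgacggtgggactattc
DELTA-TIP (TIP2;1, chr3:5505865-5505909, plus strand): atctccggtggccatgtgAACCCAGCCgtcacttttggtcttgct
DELTA-TIP3 (TIP2;3, chr5:19249194-19249238, minus strand): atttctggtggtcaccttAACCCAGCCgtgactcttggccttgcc
NLM1 (NIP1;1, chr4:10422932-10422976, minus strand): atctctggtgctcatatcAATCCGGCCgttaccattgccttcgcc
NIP5;1 (chr4:6432351-6432395, minus strand): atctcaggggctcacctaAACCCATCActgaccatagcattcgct

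PIP2B and RD28 differed at 0 of these 45 bases, and PIP2F differed from PIP2A at 10. The third codon read alanine in 30 of 35 members, including all PIP and TIP genes. It read serine in NIP5;1 and one other NIP gene, and threonine, cysteine and leucine in the 3 SIP genes. Over whole coding sequences PIP2B and RD28 were 94.8% identical, the highest value of any pair, followed by NIP4;1 and NIP4;2 at 88.0%. Both pairs are neighbours with 0 annotated genes between them, 2612 bases apart on chromosome 2 and 1989 bases apart on chromosome 5. Of all 50-base exon windows, 14.7% of those in PIP2B and 16.5% of those in RD28 occurred elsewhere in the genome, so the division of reads between these neighbours is uncertain. Windows that occur elsewhere also made up 10.4% in NIP2;1, 9.21% in NIP3;1, and 3.12% and 3.14% in NIP4;1 and NIP4;2. Where in the genome they recur was not recorded, and reads from them are uncertain too. The other 29 members had 0 such windows. Coding identity ran from 79.5 to 87.6% within PIP1 and from 62.0 to 68.2% between PIP1 and PIP2 genes.

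The libraries held 32967215, 31761722 and 27069921 counts in replicates 1, 2 and 3. In the summed levels of seed and root marker genes, replicate 1 stood apart from the other libraries. The summed level of 5 seed genes was 125 CPM (counts scaled to equal library size with TMM factors) in replicate 1, 2.35 in replicate 2 and 10.9 in replicate 3. Most of the sum in replicate 1 came from 1 gene, CRU3, at 108, 0.0327 and 1.34 CPM in the same order. The summed level of 5 root genes was 36.5 CPM in replicate 1, 79.6 in replicate 2 and 75.9 in replicate 3. Of these sums SCR, which acts in root and shoot, gave 33.7, 38.1 and 36.9 CPM. Each of the other root genes differed between replicate 1 and the other libraries by a larger factor than the sums did. The 3 shoot genes summed to 55941, 53945 and 52744 CPM. All 3 shoot genes, 2 of the 5 root genes and 1 of the 5 seed genes reached 1 CPM in each library. Of 5 pollen and anther genes 3 were at 0 in every library and the others at or below 0.422 CPM.

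Aquaporin transcripts made up 1.08%, 1.76% and 1.95% of all counts in replicates 1, 2 and 3, with exact binomial 95% intervals of 1.07 to 1.08%, 1.76 to 1.77% and 1.94 to 1.95%. In summed CPM this was 9973 in replicate 1, 18303 in replicate 2 and 20235 in replicate 3. The family total was thus 1.84-fold higher in replicate 2 and 2.03-fold higher in replicate 3 than in replicate 1. Its make-up moved far less than its level. PIP1 genes held 34.4% ± 0.930 of the member counts (SD, n = 3), PIP2 genes 32.2% ± 0.764 and TIP genes 32.5% ± 1.72. NIP genes held 0.371% ± 0.00663 and SIP genes 0.499% ± 0.0328. Per kb of exon the TIP share was 38.3% ± 1.78, the largest of the subfamilies, against 31.5% ± 1.06 for PIP1 and 29.2% ± 0.702 for PIP2 genes. The 5 members with the most counts held 66.8% ± 1.23 of the member counts, and the 10 with the most counts 91.6% ± 0.346.

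**Figure D1:**
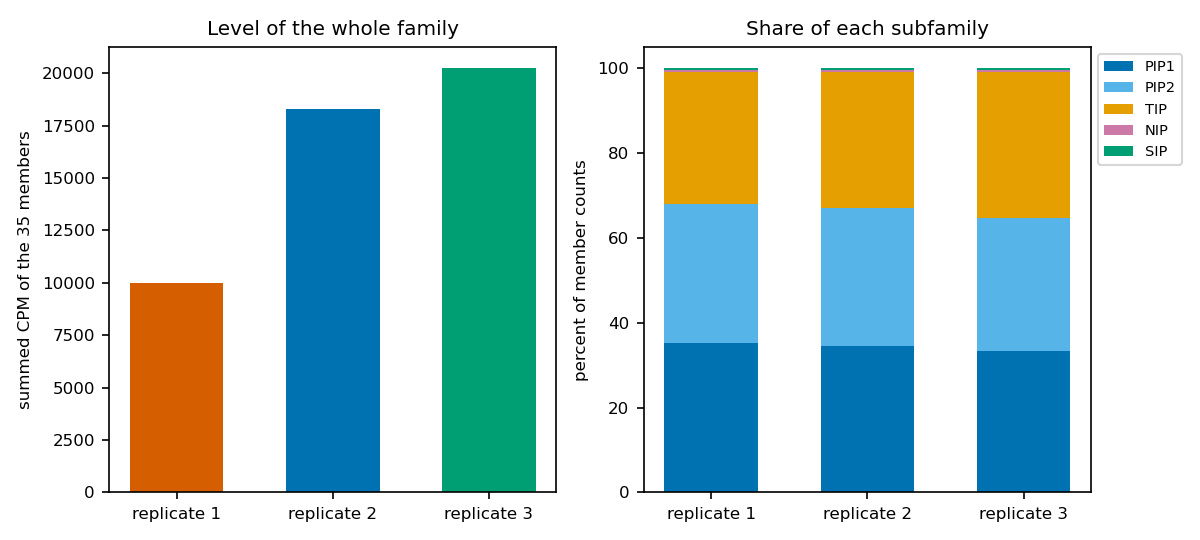
Summed level of the 35 aquaporin genes in CPM (left, bars from 0) and the percent of their counts held by each subfamily (right, stacked bars), for each of the 3 wild-type libraries. The total is 9973 CPM in replicate 1 and 18303 and 20235 CPM in replicates 2 and 3, while PIP1, PIP2 and TIP genes each hold about equal shares in every library.

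Detection was set at a level of at least 1 CPM that every library had to reach. By this rule 26 of 35 members (74.3%) were detected, against 45.7% of all genes in the table. The members all code for proteins, while the table also holds genes that do not, so 45.7% is not a share of protein-coding genes. Detected were 5 of 5 PIP1, 7 of 8 PIP2, 7 of 10 TIP, 4 of 9 NIP and 3 of 3 SIP genes. Per kb of exon, the same member led in every library. This was TIP2;1 (AT3G16240, DELTA-TIP), the delta tonoplast protein known to pass ammonia as well as water, at 2072 ± 833 CPM per kb (SD, n = 3), place 33 of 37051 genes. PIP1;2 (AT2G45960, PIP1B) came second in every library, and TIP1;2 (AT3G26520, GAMMA-TIP2) and PIP2;1 (AT3G53420, PIP2A) took places 3 and 4 in one order or the other. PIP1C (PIP1;3), PIP3 (PIP2;7) and GAMMA-TIP (TIP1;1) followed at places 5, 6 and 7 in every library. Of the 34 steps between neighbours, 13 had the same order within each of the 3 libraries. Over all libraries together, replicate 1 was lower for nearly every expressed member, and the ranges of neighbours did not overlap at 3 steps. These separated PIP1E (PIP1;4) from RD28, SIP1A (SIP1;1) from NIP6 (NIP6;1), and SIP1B (SIP1;2) from NIP2;1.

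**Figure D2:**
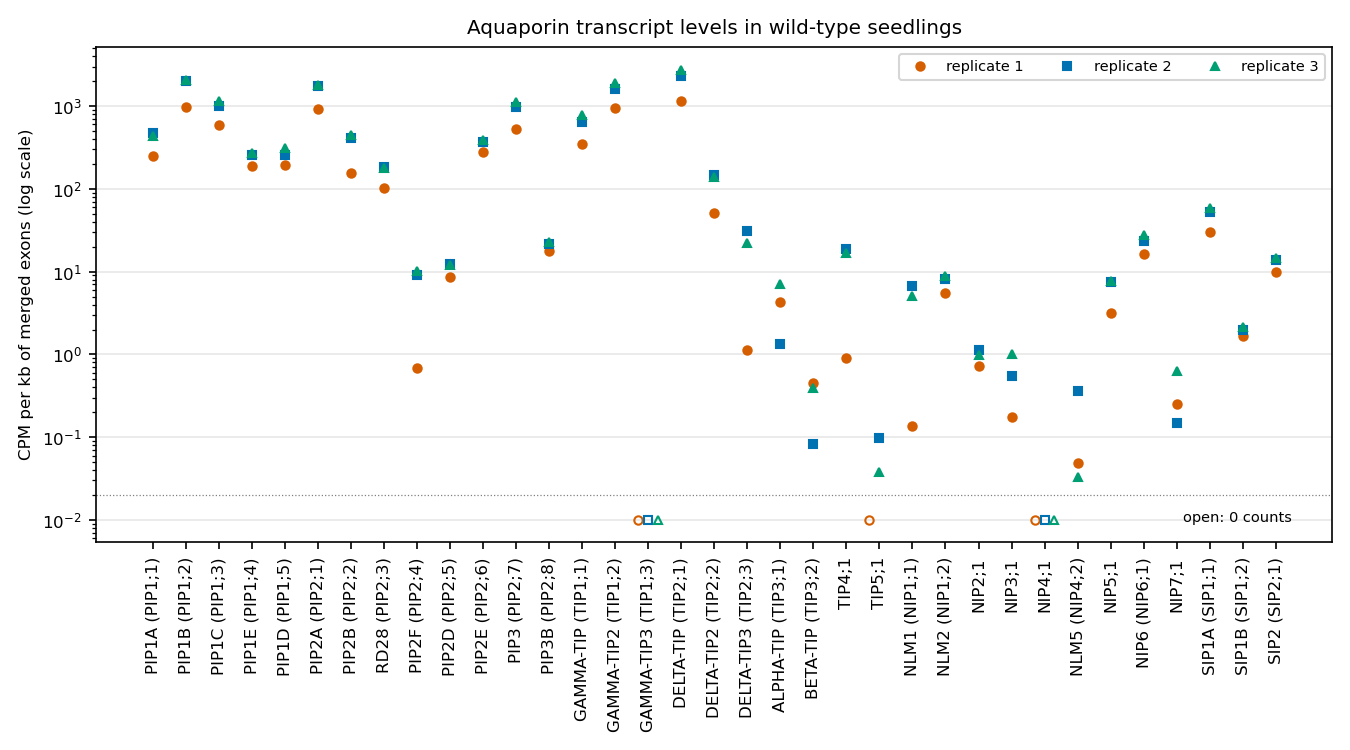
Level of each of the 35 aquaporin genes in CPM per kb of merged exons (log axis), with 1 point per wild-type library and open points on the lowest line for 0 counts. Levels span from 2072 CPM per kb on average for DELTA-TIP to 0 counts in every library for GAMMA-TIP3 and NIP4;1, and replicate 1 (circles) lies below the other libraries for nearly every expressed member.

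All 5 PIP1 genes were expressed. PIP1B, a plasma membrane isoform known for its part in water flow through roots and leaves, stood at 1558, 3171 and 3314 CPM in replicates 1, 2 and 3. The value in replicate 1 lay below the other libraries. PIP1;1 (AT3G61430, PIP1A) was at 391, 729 and 684 CPM and PIP1;3 (AT1G01620, PIP1C) at 928, 1571 and 1805 CPM in the same order. PIP1;4 (AT4G00430, PIP1E) was at 377, 511 and 538 CPM and PIP1;5 (AT4G23400, PIP1D) at 258, 341 and 413 CPM. Per kb these last genes were nearly level, at 238 ± 43.2 CPM per kb for PIP1E and 254 ± 58.4 for PIP1D (SD, n = 3). Among 37051 genes ranked per kb, the PIP1 isoforms lay between place 40 (PIP1B) and place 374 (PIP1E). PIP1B alone held 15.6%, 17.3% and 16.4% of the aquaporin counts in replicates 1, 2 and 3, with no correction for length.

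The PIP2 genes fell into an abundant and a scarce set. PIP2A, a main water channel of roots and leaves that also passes hydrogen peroxide, was at 1452, 2746 and 2839.6 CPM in replicates 1, 2 and 3. PIP2;7 (AT4G35100, PIP3) was at 843, 1553 and 1791 CPM and PIP2;6 (AT2G39010, PIP2E) at 606, 785 and 834 CPM. PIP2E was the steadiest of the members above 100 CPM, with a coefficient of variation of 16.2% over the libraries. The neighbours PIP2;2 (AT2G37170, PIP2B) and PIP2;3 (AT2G37180, RD28), the second known as a gene responsive to desiccation, were at 212, 555 and 602 CPM and 125, 223 and 215 CPM. PIP2B was lower in replicate 1 by more than RD28 was, although their shared exon windows leave both values uncertain. PIP2;8 (AT2G16850, PIP3B) was at 26.3, 31.6 and 33.8 CPM and PIP2;5 (AT3G54820, PIP2D), a gene known to rise under drought, at 15.4, 22.1 and 21.4 CPM. PIP2;4 (AT5G60660, PIP2F), which is expressed mainly in roots in published maps, was the least abundant PIP gene and missed the detection rule through replicate 1 alone.

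The TIP genes ranged from the highest level of the family to 0 counts. DELTA-TIP was at 1367, 2731 and 3293 CPM and GAMMA-TIP2 at 1221, 2099 and 2461 CPM in replicates 1, 2 and 3. TIP1;1 (AT2G36830, GAMMA-TIP), the gamma isoform typical of large vacuoles in growing cells, was at 427, 806 and 961 CPM. All were lowest in replicate 1 and highest in replicate 3. TIP2;2 (AT4G17340, DELTA-TIP2), a relative of DELTA-TIP known from roots, was at 68.97, 200.1 and 189 CPM. The seed isoforms, which line protein storage vacuoles, were scarce. TIP3;1 (AT1G73190, ALPHA-TIP) was at 5.004, 1.57 and 8.41 CPM and TIP3;2 (AT1G17810, BETA-TIP) at 0.534, 0.0981 and 0.461 CPM. Their exons are covered over 24.6% and 47.1% of their length by genes on the other strand, so without a known strand setting both counts are uncertain. The pollen isoforms were at or near 0. TIP1;3 (AT4G01470, GAMMA-TIP3) had 0 counts in each library, which allows up to 0.0843, 0.0981 and 0.115 CPM at 3 counts, and TIP5;1 (AT3G47440) had 0, 3 and 1 counts. A limit of this kind covers counting error only.

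NIP genes were all below 35 CPM. Per kb of exon, NIP6 led them in every library, at 22.6 ± 5.85 CPM per kb, followed by NLM2 at 7.52 ± 1.77 and NIP5;1 at 6.14 ± 2.56 (SD, n = 3). NIP6;1 (AT1G80760, NIP6), known for moving boric acid toward young shoot tissue, was at 19.8, 28.4 and 33.9 CPM in replicates 1, 2 and 3. NIP5;1 (AT4G10380), the channel for boric acid entry into roots, was at 6.92, 16.5 and 16.6 CPM. Replicate 1 held its lowest value, and the other libraries were nearly equal. NIP1;2 (AT4G18910, NLM2) was at 7.93, 11.8 and 12.7 CPM and NIP2;1 (AT2G34390), a lactic acid channel, at 1.01, 1.57 and 1.38 CPM. Exons of NIP2;1 are covered over 61.9% of their length by a gene on the other strand, so its count is uncertain. NIP3;1 (AT1G31885) had 9, 24 and 38 counts. The reproductive members NIP4;1 (AT5G37810), NIP4;2 (AT5G37820, NLM5) and NIP7;1 (AT3G06100) are known from pollen and anthers. NIP4;1 had 0 counts in each library, NLM5 had 2, 13 and 1 and NIP7;1 had 14, 7 and 25.

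The 3 SIP genes were detected at different levels. SIP1;1 (AT3G04090, SIP1A), a water channel of the endoplasmic reticulum, was at 38.5, 67.1 and 76.2 CPM in replicates 1, 2 and 3. SIP2;1 (AT3G56950, SIP2) was at 12.9, 17.7 and 18.6 CPM and SIP1;2 (AT5G18290, SIP1B) at 2.16, 2.58 and 2.76 CPM. SIP1B varied least of the 28 members whose mean reached 1 CPM, with a coefficient of variation of 12.3%. Replicate 1 held the lowest value of each SIP gene. Genes on the other strand cover 13.1% of the exon length of SIP2, 14.0% of DELTA-TIP, 9.10% of TIP5;1 and 2.15% of NIP6, and with the strand setting unknown these counts are uncertain to that extent.

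Ratios between 18 pairs of related genes were taken within each library, as log2 of CPM per kb plus 0.1. PIP3 exceeded PIP3B by 4.88, 5.50 and 5.61 in replicates 1, 2 and 3, a mean of 5.33 ± 0.39 (SD, n = 3) or 40.2-fold. PIP2E exceeded PIP2D by 4.97 ± 0.08, the smallest spread of any pair. DELTA-TIP exceeded DELTA-TIP2 by 4.25 ± 0.27, and SIP1A exceeded SIP1B by 4.48 ± 0.35. PIP2B over RD28 was 0.62, 1.18 and 1.34, which rests in part on reads that could be divided between these neighbours in more than one way. The 17 pairs with counts for both genes kept their direction in 3 of 3 libraries, while in the pair of NIP4 genes the 0 counts of 1 gene fix the direction. PIP1E over PIP1D was close to 0, at −0.08 ± 0.11, and turned to 0.51 without the length correction. The widest pairs were NLM1 over NLM2, at −4.57, −0.30 and −0.80 in replicates 1, 2 and 3, and DELTA-TIP2 over DELTA-TIP3, at 5.38, 2.27 and 2.67. In both, replicate 1 stood away from the other libraries. Signs of the 3 log2 ratios were flipped in all ways as an exact permutation test, two-sided. With 3 libraries its smallest possible p is 0.25, and each of those 17 pairs had that exact p before and after Benjamini-Hochberg adjustment over all 18.

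**Figure D3:**
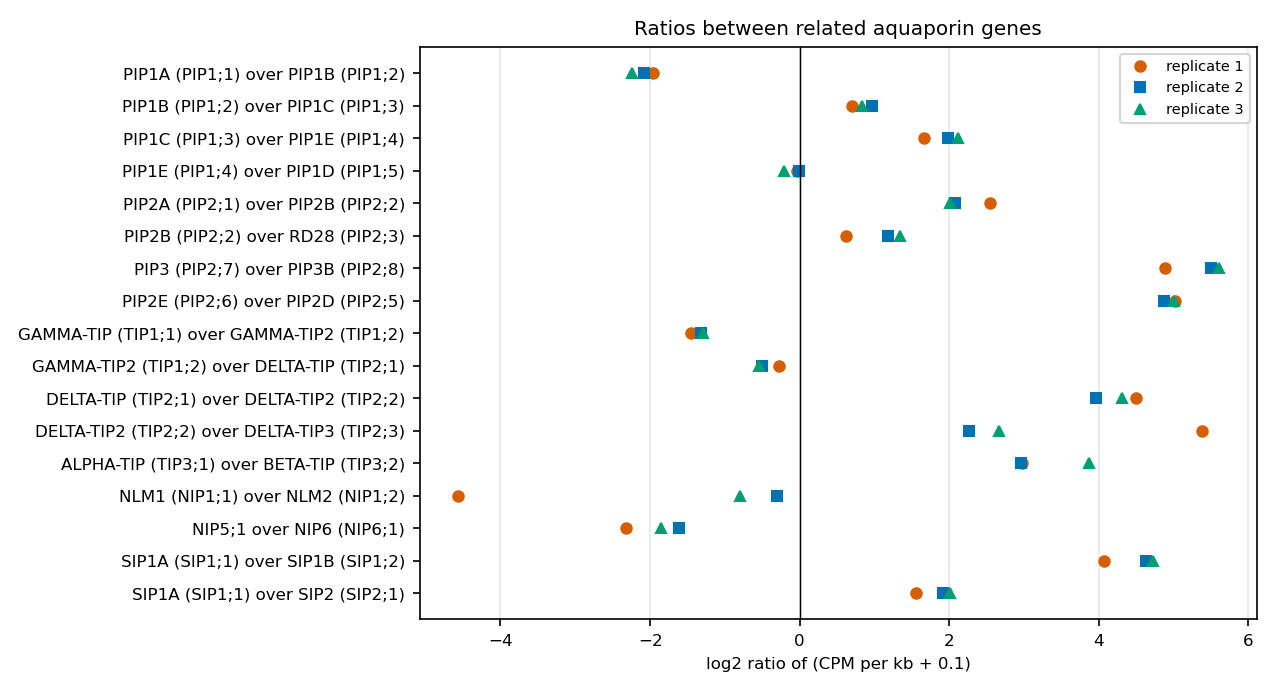
Log2 ratio of CPM per kb plus 0.1 between related aquaporin genes, with 1 point per wild-type library. Values above 0 mean that the first-named gene is higher. The ratios lie close together for most pairs, while NLM1 over NLM2 (−4.57 in replicate 1 against −0.30 and −0.80) and DELTA-TIP2 over DELTA-TIP3 (5.38 against 2.27 and 2.67) spread widely. The pair of NIP4 genes is left out because 1 of them had 0 counts.

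Between libraries the members moved together. Of the 28 members whose mean reached 1 CPM, 27 had their lowest value in replicate 1 (96.4%), against 44.2% of all 18189 genes with such a mean. The exception was ALPHA-TIP. The median log2 difference of the 28, on log2(CPM + 0.5), was −0.81 between replicates 1 and 2, −0.96 between replicates 1 and 3 and −0.09 between replicates 2 and 3. The medians over all 18189 genes were 0.01, 0.01 and 0.01. In 8 members (28.6%) each other library was over 2-fold above replicate 1, against 7.69% of all genes. In 0 members was replicate 1 over 2-fold above each other library, against 6.81% of all genes. These 8 were PIP1B, PIP2B, PIP2F, DELTA-TIP2, DELTA-TIP3, TIP4;1, NLM1 and NIP5;1. No test was made of these shares, because replicate 1 is 1 library.

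The largest differences were in 4 members known for expression in roots. DELTA-TIP3 measured 1.32, 35.9 and 25.7 CPM across replicates 1, 2 and 3 (47, 1097 and 669 counts). TIP4;1 (AT2G25810), a tonoplast channel, was at 1.07, 21.8 and 19.8 CPM (38, 666 and 515 counts). PIP2F was at 0.984, 13.3 and 14.7 CPM (35, 408 and 384 counts). NLM1, a channel that passes arsenite, was at 0.197, 9.61 and 7.33 CPM (7, 294 and 191 counts). In all 4 genes replicate 1 stood far below the other libraries, which differed less from each other. The level in replicate 2 over that in replicate 1 was 27.1-fold for DELTA-TIP3 (AT5G47450), 20.4-fold for TIP4;1, 13.6-fold for PIP2F and 48.8-fold for NLM1 (AT4G19030), where 7 counts stand behind the value in replicate 1.

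Of the 27 members tested, 3 spread more between libraries than the dispersion trend at their abundance allows (11.1%, against 2.02% of all genes). The test was the goodness of fit in edgeR, with p-values adjusted after Benjamini and Hochberg over 19016 genes. In edgeR these were DELTA-TIP3 (adjusted p = 6.29e-08), TIP4;1 (adjusted p = 1.20e-05) and PIP2F (adjusted p = 8.14e-04). NLM1 was left out by the filter on low counts, and had an adjusted p of 1.01e-04 in the edgeR test with no filter. Of the other 24 members tested, PIP2B and DELTA-TIP2 came nearest, at adjusted p = 0.135 and 0.122 by edgeR. The call on all 3 genes rests on replicate 1. Without that library the edgeR test gave adjusted p = 0.598 for DELTA-TIP3 and 0.9998 for TIP4;1 and PIP2F, and it called ALPHA-TIP instead (adjusted p = 5.55e-09), which had 48 counts in replicate 2 and 219 in replicate 3.

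Root marker genes, from a list chosen with earlier results of these data known, were lowest in replicate 1. The endodermal Casparian strip gene CASP1 measured 1.88, 28.02 and 27.6 CPM in replicates 1, 2 and 3 and passed the same edgeR test (adjusted p = 8.07e-06). Of the root genes 3 were tested and 1 passed. MYB36 and SCR did not pass, and the filter on low counts left out COBL9 and EXPA7. Of the seed genes 2 were tested and 1 passed, OLEO1 (adjusted p = 0.00289 by edgeR). Among all genes tested 2.02% passed, and calls among so few markers say little. Of the root hair genes, EXPA7 measured 0.169, 8.01 and 6.56 CPM, and COBL9 measured 0.0843, 2.84 and 2.61 CPM. The endodermal regulator MYB36 was at 0.675, 2.58 and 2.15 CPM. SCR, which acts in the endodermis of root and shoot, was at 33.7, 38.1 and 36.9 CPM, with little difference between libraries. All 5 root genes were lowest in replicate 1, SCR by the least, and so were 44.2% of all 18189 genes with a mean of at least 1 CPM. All 5 seed genes were highest in replicate 1, among them the storage protein gene CRU3 at 108, 0.0327 and 1.34 CPM and the oleosin gene OLEO1 at 9.39, 0.425 and 4.07 CPM. The share of all genes highest in replicate 1 was not taken, so this count has no background beside it. EM6 was at 5.06, 1.63 and 4.34 CPM, EM1 at 2.61, 0.262 and 1.07 CPM and SESA1 at 0.422, 0 and 0.0384 CPM. In all 5 seed genes replicate 2 was the lowest library, and in EM6 replicate 3 lay near replicate 1. Of the seed isoforms of the family, ALPHA-TIP was highest in replicate 3, and BETA-TIP was highest in replicate 1 on 19, 3 and 12 counts. The part that root or seed material plays in the aquaporin differences was not tested, and in whole seedlings fewer cells of a type and less RNA per cell cannot be told apart.

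**Figure D4:**
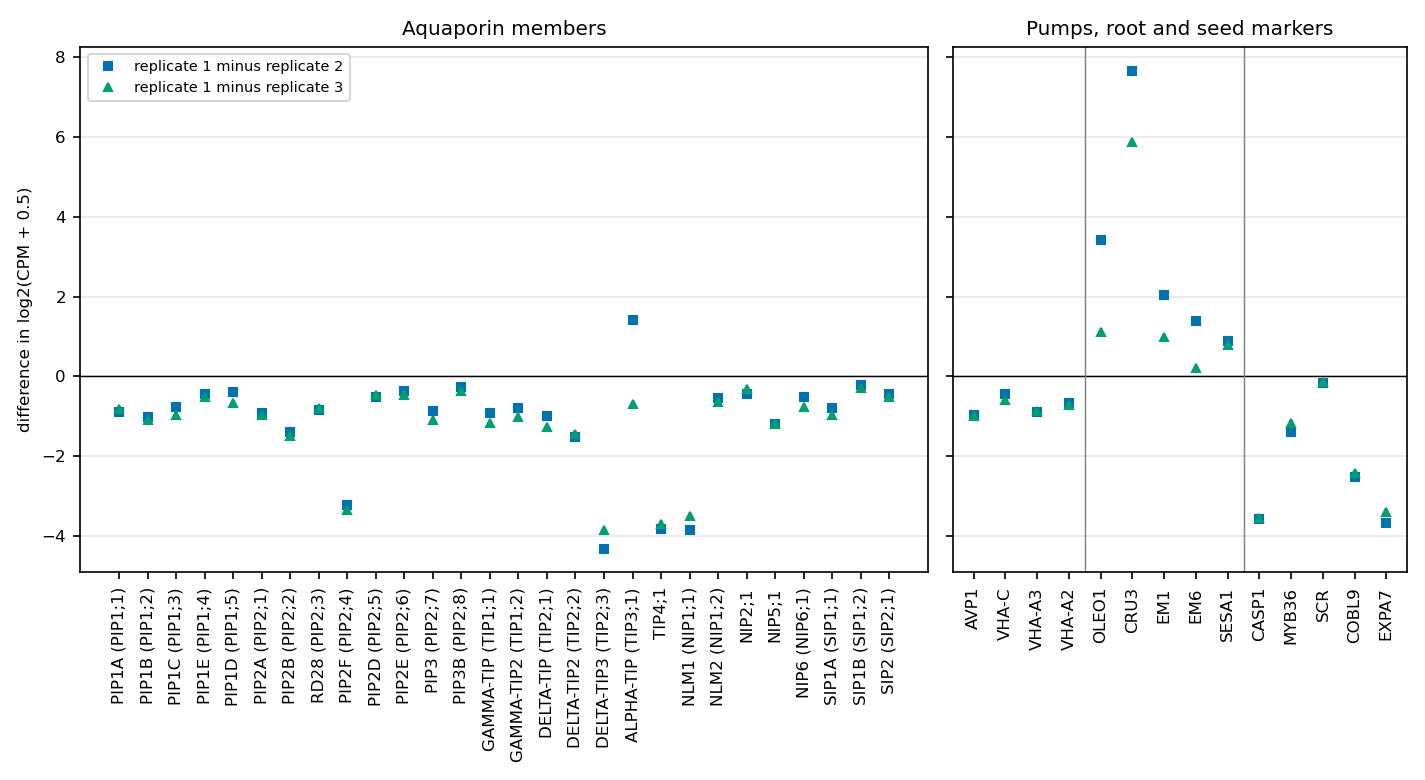
Difference in log2(CPM + 0.5) between replicate 1 and replicate 2 (squares) and between replicate 1 and replicate 3 (triangles) for the 28 aquaporin genes whose mean reached 1 CPM (left) and for vacuolar pumps, seed genes and root genes (right, in that order between the lines). The aquaporins lie below 0 except ALPHA-TIP against replicate 2, with 4 genes below −3, and the root genes lie below 0 while the seed genes lie above it.

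The 250 bases before the annotated start of these 4 genes are shown because the genes moved together. They were read 5′ to 3′ on the strand of each gene from the RefSeq genome of TAIR10.1. Capitals mark matches on either strand to the letters TATAAA, found in TATA boxes, or to the letters TTGAC, the core of W-boxes. The G-box letters CACGTG and the evening element letters AAATATCT were also searched.
DELTA-TIP3 (chr5:19249623-19249872, minus strand): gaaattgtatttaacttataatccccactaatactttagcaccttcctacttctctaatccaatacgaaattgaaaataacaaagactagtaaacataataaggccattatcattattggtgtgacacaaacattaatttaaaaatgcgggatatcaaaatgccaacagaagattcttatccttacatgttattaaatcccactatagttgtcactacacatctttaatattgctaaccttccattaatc
TIP4;1 (chr2:11012249-11012498, plus strand): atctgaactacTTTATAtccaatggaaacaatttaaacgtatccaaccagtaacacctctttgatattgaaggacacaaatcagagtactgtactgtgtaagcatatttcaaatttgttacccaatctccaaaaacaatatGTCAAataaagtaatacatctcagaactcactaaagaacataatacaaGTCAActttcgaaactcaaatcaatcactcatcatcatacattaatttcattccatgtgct
PIP2F (chr5:24377207-24377456, minus strand): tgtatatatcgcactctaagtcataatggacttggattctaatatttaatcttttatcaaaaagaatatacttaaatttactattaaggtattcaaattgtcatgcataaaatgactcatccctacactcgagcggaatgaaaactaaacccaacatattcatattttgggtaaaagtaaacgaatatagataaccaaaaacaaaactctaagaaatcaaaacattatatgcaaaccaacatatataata
NLM1 (chr4:10423509-10423758, minus strand): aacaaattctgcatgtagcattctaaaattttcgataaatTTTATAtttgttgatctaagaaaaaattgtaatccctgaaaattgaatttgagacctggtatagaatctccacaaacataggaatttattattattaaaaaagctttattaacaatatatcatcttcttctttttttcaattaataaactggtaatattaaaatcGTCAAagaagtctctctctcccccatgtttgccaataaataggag

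TIP4;1 and NLM1 held the TATA box letters as well as the W-box core, all on the opposite strand. Their TATA box letters lay toward the end of the window farther from the gene. Such a match does not show a TATA box in use. The windows of DELTA-TIP3 and PIP2F held none of the 4 motifs. Among all 35 members 13 windows held the TATA box letters (37.1%), against 47.3% of the windows of 27443 protein-coding genes. The W-box core was in 19 members (54.3%), against 44.9%. The G-box and the evening element were in 0 members, against 6.49% and 4.79%. No match says only that these letters are not in the window.

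Genes that act on aquaporins or beside them were taken from a list of 12. Of these partner genes 11 were detected, against 45.7% of all genes in the table. In the edgeR test 0 of 12 passed, against 2.02% of all genes tested, and 1 had an unadjusted p under 0.05. At that share, 0 calls among 12 genes say little about partners. SYP121 and SYP61, syntaxins that deliver PIP proteins to the plasma membrane, were at 19.7, 29.4 and 34.2 CPM and 24.9, 13.6 and 11.1 CPM in replicates 1, 2 and 3. SEC24A, a coat protein of vesicles that leave the endoplasmic reticulum, was at 102, 153 and 166 CPM. SYP61 was highest in replicate 1, against the direction of the channels. The kinase genes OST1, BAK1 and SIRK1, whose products act on PIP2 proteins, were at 19.4, 18.7 and 17.8, at 29.6, 37.7 and 42.6 and at 24.5, 25.9 and 30.3 CPM. TSPO, a membrane protein that directs PIP proteins to breakdown, was at 8.83, 11.5 and 14.01 CPM, and RMA1, a membrane-bound ubiquitin ligase, at 8.68 ± 0.504 CPM (SD, n = 3). RMA1 and OST1 differed little between libraries, and OST1 was highest in replicate 1.

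The listed boron exporters differed in direction between libraries, and the 4 listed vacuolar pump genes did not. BOR1, which loads boron into the xylem, was at 47.3, 35.2 and 39.8 CPM and highest in replicate 1. BOR2, an exporter of the root, was at 9.19, 26.6 and 27.6 CPM, and BOR4 at 0.590, 2.09 and 2.34 CPM. Both were lowest in replicate 1. The gene with an unadjusted p under 0.05 was BOR2 (adjusted p = 0.373 by edgeR). The glycerol kinase gene GLI1 was at 45.9, 85.6 and 86.8 CPM. All 4 vacuolar pump genes on the list, whose products share the tonoplast with TIPs, were lowest in replicate 1. The same held for 44.2% of all 18189 genes with a mean of at least 1 CPM, so 4 genes say little about pumps. AVP1, the vacuolar pyrophosphatase, was at 492, 968 and 983 CPM, VHA-A3 at 104, 192 and 189 CPM, VHA-A2 at 51.3, 81.1 and 84.5 CPM and VHA-C at 93.9, 128 and 143 CPM. Of these 4 genes 0 passed the edgeR test, against 2.02% of all genes tested, and 0 had an unadjusted p under 0.05. With 4 genes, 0 calls say little.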

How the data were processed

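The deposited table holds whole-number counts of reads per gene for 3 libraries, made by the authors. TAIR10, DESeq2, featureCounts 1.6.1 and HISAT2 2.1.0 are listed per the submitters' processing notes, without roles. No source used here gives the strand setting, annotation or filters. The table held 0 columns of other samples. Library totals were 27069921 to 32967215 counts. Molecular identifiers are not mentioned in the labels' protocols for these PCR-amplified libraries, so intervals and floors cover counting error only.

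CPM used TMM factors from edgeR 4.0.16 in R 4.3.3. Single genes were ordered by CPM per kb of merged exons, and shares of the aquaporin counts carry no length correction unless given per kb. Exons came from the RefSeq annotation of TAIR10.1, which matched 37051 of 37336 identifiers. Variation between libraries was tested with edgeR's goodness of fit on the trended dispersion, with an intercept only, after filterByExpr (minimum count 10). The threshold was an adjusted p of 0.05. Only this test was also run on simulated counts, drawn from the trended dispersion with some genes raised in replicate 1. The outcome is not given here, and genes lowered in replicate 1 were not simulated. DESeq2 1.42.0 gave size factors and dispersion outliers as alternatives. Exact intervals are Clopper-Pearson. All 35 members, the partners and the pumps are named by rule. Individual marker genes were named after their values were seen. Members and lists were chosen with earlier results of these data known.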

Additional observations from a re-analysis of the deposited data

How the results depend on the processing

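Counted per kb of merged exons, the subfamily shares moved to 31.5% for PIP1, 29.2% for PIP2, 38.3% for TIP, 0.381% for NIP and 0.563% for SIP genes. With 1 library left out at a time, the edgeR test called 1 to 3 members and 60 to 129 genes in all, of 19179 to 19468 genes tested. The lowest counts came without replicate 1, where 0 of the 3 members called with all libraries were called. DESeq2's dispersion outliers held 1 member (DELTA-TIP3) and 23 of 19016 genes, and the cause was not tested. With no filter on low counts NLM1 was called as well, giving 4 members and 436 of 24872 genes tested. PIP1E over PIP1D reversed to a log2 ratio of 0.51 without the length correction. Members lowest in replicate 1 numbered 27 under DESeq2 size factors and under total counts. Those over 2-fold below each other library numbered 9 and 7. No share of all genes is given here for these settings, so these member counts have no background beside them. These last settings were chosen after seeing the data. No paired analysis was possible because all libraries belong to 1 group.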
